A study of Mus musculus with 6 samples.

Results

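Of 11609 messenger RNAs listed for 6 libraries, 78 encode mitochondrial ribosomal proteins by their symbol: 49 carry the prefix Mrpl, for the large subunit, and 29 the prefix Mrps, for the small subunit. A gene belonged to the set when its symbol began with Mrpl or Mrps followed by a number. The RNA came from N2a, a line of mouse neuroblastoma cells, and all 6 libraries came from cells that had been given 10 µM retinoic acid for 96 h in medium with 2% serum, which turns them into neuron-like cells with long processes. In 3 libraries, called RSL3 here, the cells then received 5 µM RSL3 for 24 h. RSL3 inhibits GPX4, the selenoenzyme that reduces lipid peroxides, and so induces ferroptosis. The other 3 libraries, called DMSO, came from cells kept at the same concentration of the solvent alone. One cell line is a limited model of neurons, and the labels do not say whether replicates are separate cultures, so p-values here measure a difference against the spread between these libraries, which may be technical.

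The mitochondrial ribosome is made inside the organelle from ribosomal RNAs encoded by mitochondrial DNA and from proteins that are all encoded in the nucleus, translated in the cytosol and imported. It translates only the few mRNAs of mitochondrial DNA, which encode core subunits of the respiratory chain and ATP synthase. The small subunit binds the mRNA and decodes it, and the large subunit forms the peptide bond. Many of its proteins descend from bacterial ribosomal proteins, and the others were added during the evolution of mitochondria.

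Values are FPKM, fragments per kilobase of transcript scaled to the library's mapped fragments, so levels can be set side by side between genes, but read depth is unknown. The comparison used limma on log2(FPKM + 1), which understates the change of low genes, and a gene was called when its Benjamini-Hochberg adjusted p over all tested mRNAs was below 0.05. A gene was tested when it reached 1 FPKM in at least 3 libraries, which 10590 mRNAs did, among them all 78 members. RSL3 called 676 mRNAs (6.38%), 261 higher (2.46%) and 415 lower (3.92%). This background depends on single libraries: it was 1276 without RSL3 replicate 1, 187 without RSL3 replicate 3, and 165, 143 and 137 without DMSO replicate 1, 2 and 3. The RSL3 libraries differed among themselves with GC content. Across 10578 tested mRNAs with an annotated GC content, the difference of RSL3 replicates 1, 2 and 3 from the other RSL3 libraries correlated with GC at a Pearson r of 0.65, -0.61 and -0.24, and across the 78 members at 0.43, -0.43 and -0.20; genes share these libraries and are not independent replicates. The sympathetic neuroblastoma markers were all listed, 10 of 10, summing to 441, 364 and 380.1 FPKM in RSL3 and 455, 452 and 460.3 FPKM in DMSO; Th, the noradrenergic rate-limiting enzyme, stayed below 1 FPKM in all 6 libraries. Of the markers of other cell types, 1 of 6 glial genes, 0 of 4 macrophage genes and 2 of 5 fibroblast genes were listed; the glial gene lay between 1.07 and 1.25 FPKM in RSL3 and between 1.06 and 1.18 FPKM in DMSO, and the fibroblast genes summed to 1.36, 1.34 and 0.761 FPKM in RSL3 and 5.02, 3.52 and 1.06 FPKM in DMSO. All 7 hepatocyte genes were listed, summing to 20.4, 18.9 and 10.8 FPKM in RSL3 against 46.3, 62.2 and 53.5 FPKM in DMSO, and the 6 that could be tested were all called lower. The part of these marker differences in the results on the ribosomal proteins was not tested.

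After RSL3, mRNAs of the mitochondrial ribosome stood slightly lower over both subunits, and few single genes could be told from the spread between libraries. The median log2 fold change was -0.161 over the 78 members, -0.137 over the 49 Mrpl genes and -0.189 over the 29 Mrps genes, against -0.031 over all tested mRNAs. The fold change was under 0 for 66 members (84.6%), 40 Mrpl and 26 Mrps, against 56.4% of all tested mRNAs. In limma, 1 member, Mrps28, was called lower (1.28% of the members, against 3.92% of all mRNAs), and none higher. At an unadjusted p under 0.05, 21 members were lower and 2 higher, where 14.3% of all mRNAs were lower and 9.86% higher. All 3 RSL3 libraries lay below all 3 DMSO libraries for 32 members (41.0%, against 19.6% of all mRNAs) and above them for 4 members (5.13%, against 13.4%). Without RSL3 replicate 1 the fit called 12 members, 11 lower (14.1%, against 7.18% of all mRNAs) and 1 higher (against 4.94%). Without RSL3 replicate 2 it called 2 lower (against 4.14% of all mRNAs) and 1 higher (against 2.76%). Leaving out any other library left Mrps28 as the single call.

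**Figure D1:**
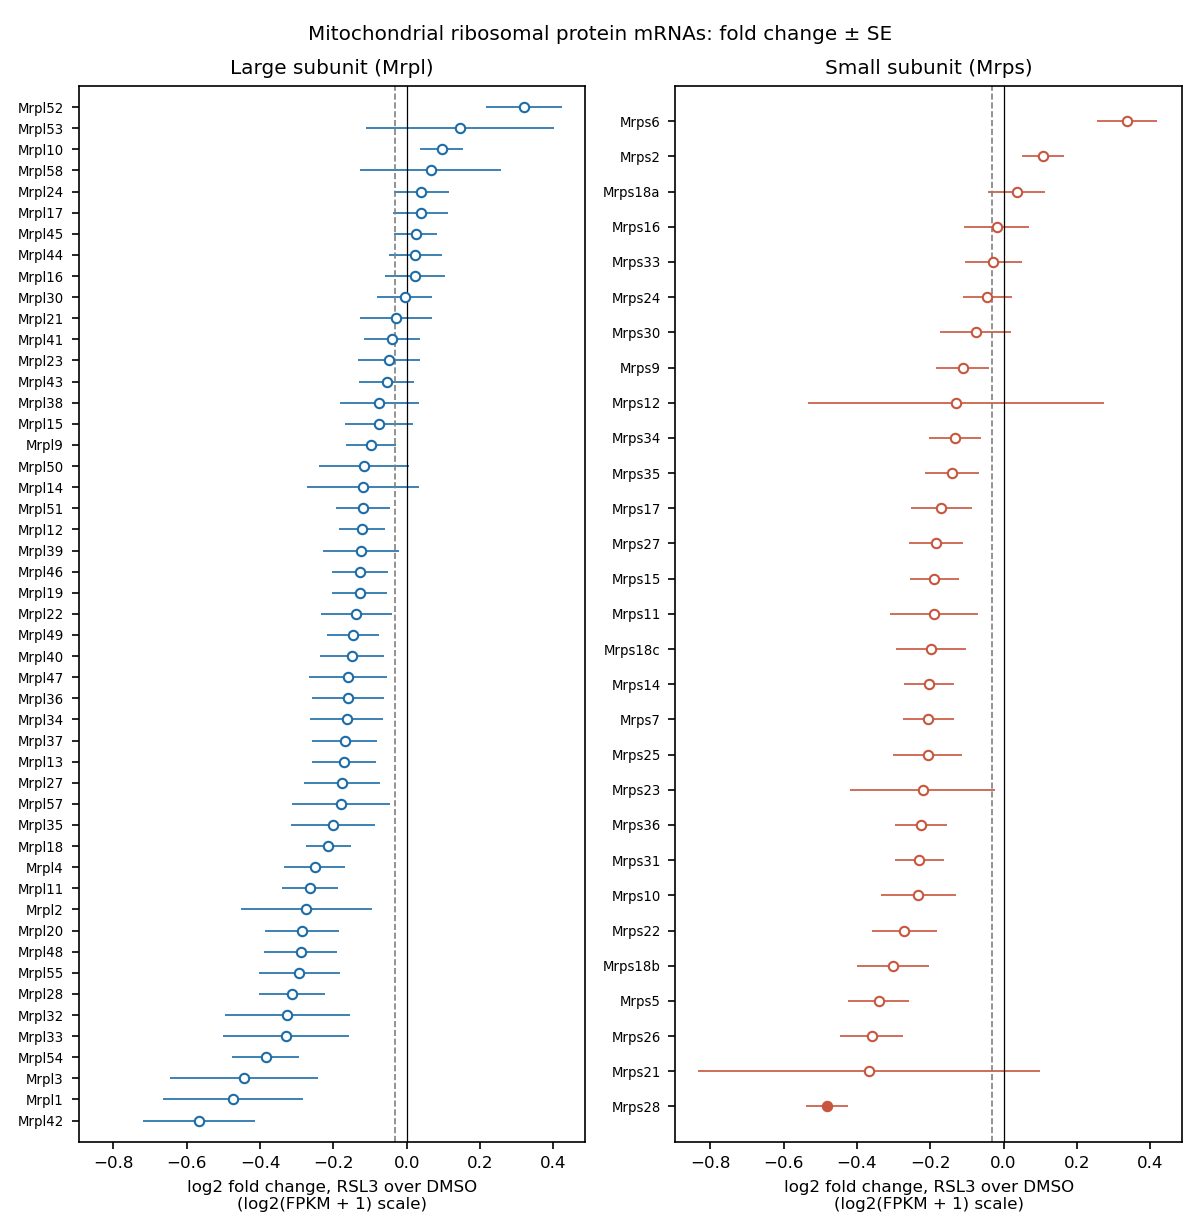
Log2 fold change, RSL3 over DMSO on the log2(FPKM + 1) scale, of each of the 49 Mrpl genes (left) and 29 Mrps genes (right), with bars for the standard error of the limma fit; the filled point is the single called gene, Mrps28, and the dashed line the median of all tested mRNAs at -0.031. Most points lie left of 0, with Mrps6 and Mrpl52 farthest to the right and Mrpl42 farthest to the left.

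The libraries behind these medians can be read one by one. Relative to the DMSO mean of each gene, the Mrpl median was -0.123, -0.125 and -0.132 in RSL3 replicates 1, 2 and 3, and 0.039, -0.025 and -0.020 in the DMSO replicates. The Mrps median was -0.199, -0.174 and -0.159 in the RSL3 replicates, and 0.0056, 0.011 and -0.0045 in the DMSO replicates. In both subunits every RSL3 library lay below every DMSO library. The median of all tested mRNAs was -0.098, 0.0055 and 0.0099 in the RSL3 replicates, and -0.0028, 0.024 and -0.019 in the DMSO replicates. That of RSL3 replicate 1 thus lay low with the members, while those of the other RSL3 libraries lay near 0. Set against the all-mRNA median of the same library, Mrpl in RSL3 replicate 1 was not below Mrpl in DMSO replicate 2. The separation of the groups is then lost for Mrpl and kept for Mrps. Splitting the members at their median GC content gave medians of -0.221, -0.094 and -0.132 in the RSL3 replicates for the 39 of lower GC and of -0.072, -0.182 and -0.159 for the 39 of higher GC. Both sets were thus below 0 in all 3 RSL3 libraries, in a different order of libraries. With the trends of length and GC removed from every library, the medians shrank to -0.057 for Mrpl and -0.101 for Mrps, with 7 members called lower (8.97%, against 9.1% of all mRNAs) and 2 higher (against 7.7%).

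**Figure D2:**
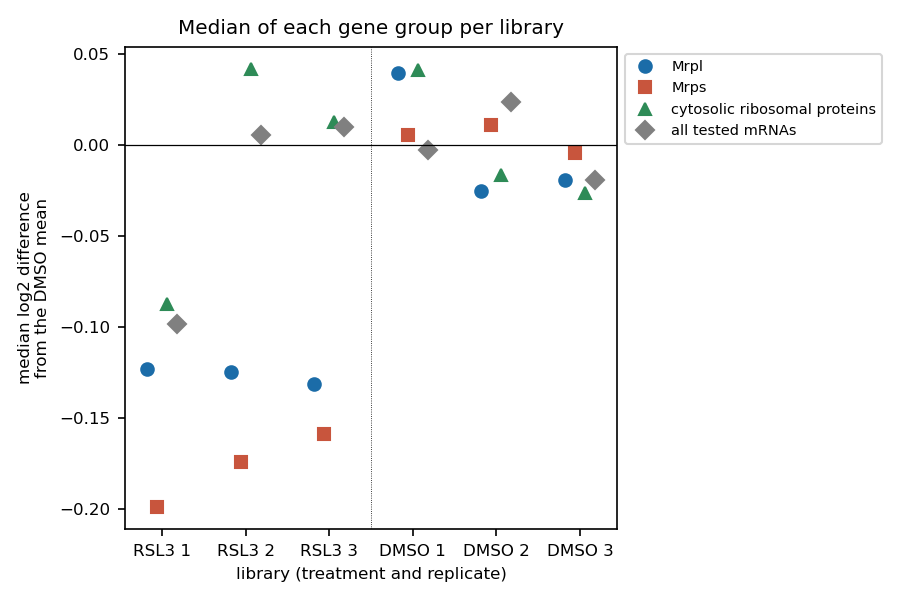
Median log2 difference from the DMSO mean of each gene, on the log2(FPKM + 1) scale, in each RSL3 and DMSO library, for the Mrpl genes, the Mrps genes, the cytosolic ribosomal protein genes and all tested mRNAs. Both mitochondrial subunits lie between -0.199 and -0.123 in the RSL3 libraries, while all mRNAs are at -0.098 in RSL3 replicate 1 and close to 0 in RSL3 replicates 2 and 3.

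The subunits did not separate from each other. The Mrps median minus the Mrpl median was -0.076, -0.049 and -0.027 in the RSL3 replicates and -0.034, 0.036 and 0.015 in the DMSO replicates, and RSL3 replicate 3 and DMSO replicate 1 overlap. All RSL3 libraries lay below all DMSO libraries for 17 of 29 Mrps genes (58.6%) and 15 of 49 Mrpl genes (30.6%), against 19.6% of all mRNAs, and above them for 2 in each subunit (6.9% of Mrps and 4.08% of Mrpl, against 13.4%). Mrps30 and Mrps18a are built into the large subunit in spite of their symbols, and Mrps36 is a component of the 2-oxoglutarate dehydrogenase complex. With these moved, the medians were -0.128 over 51 large-subunit genes and -0.194 over 26 small-subunit genes. By origin, the median was -0.170 over the 46 members listed with a bacterial homologue and -0.137 over the 32 listed without one. These 32 include Mrps36, and also Mrps18a and Mrps18b, whose family is related to a bacterial protein.

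Mrps28 encodes a small-subunit protein that is the counterpart of bacterial ribosomal protein S1. Its gene lies on the minus strand at chr3:8802146-8923918 (GRCm38). It had 24.6, 24.5 and 25.5 FPKM in RSL3 against 34.3, 35.5 and 35.5 FPKM in DMSO. The RSL3 values lie close together and well under the lowest DMSO value. The log2 fold change was -0.48 ± 0.057 (SE; limma adjusted p = 0.00562), and the call held in all 15 alternative fits. In some it held narrowly, with a limma adjusted p of 0.0405, 0.0467 and 0.0473 without DMSO replicate 1, 2 and 3. With the replicate block it was 0.0367.

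Other small-subunit genes came close to the threshold. Mrps26, which encodes a protein found only in mitochondrial ribosomes, had 9.36, 8.18 and 9.84 FPKM in RSL3 against 11.6, 12.6 and 11.7 FPKM in DMSO (log2 fold change -0.36 ± 0.086, SE; limma adjusted p = 0.0548). Mrps5 encodes a homologue of bacterial S5, a protein near the mRNA entry of the small subunit, and had 8.92, 8.52 and 8.03 FPKM in RSL3 against 11.8, 10.2 and 11.1 FPKM in DMSO (limma adjusted p = 0.0555). In both genes the groups did not overlap, and 3 (Mrps26) and 2 (Mrps5) of 15 alternative fits called them lower. Mrps18b and Mrps18c belong, with Mrps18a, to a family of paralogs related to bacterial S18. Mrps18b had 15.2, 15.1 and 17.3 FPKM in RSL3 against 17.4, 21.04 and 21.07 FPKM in DMSO, with a gap of little width between the groups. Mrps18c and the large-subunit protein gene Mrps18a averaged 14.7 ± 1.64 and 14.5 ± 0.883 FPKM in RSL3, and 16.9 ± 1.00 and 14.2 ± 0.856 FPKM in DMSO (SD, n = 3). None of the 3 paralogs was called. Mrps31, Mrps36, Mrps7, Mrps17 and Mrps35 also lay lower in every RSL3 library than in any DMSO library without passing in the main fit, with log2 fold changes between -0.23 and -0.14. Of these, Mrps7 was called lower in 2 of 15 alternative fits and Mrps36 in the fit without RSL3 replicate 1. Mrps30 overlapped, at 11.1, 13.7 and 14.1 FPKM in RSL3 against 14.0, 13.4 and 13.5 FPKM in DMSO.

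Mrps6, which encodes a homologue of bacterial S6, stood on the other side of DMSO from most of the set. It had 104, 84.9 and 94.1 FPKM in RSL3 against 75.3, 75.6 and 71.8 FPKM in DMSO, and all RSL3 values lay above all DMSO values. The log2 fold change was 0.34 ± 0.082 (SE; limma adjusted p = 0.0558), and 6 of 15 alternative fits called it higher, among them those without RSL3 replicate 1 and without RSL3 replicate 2. Slc5a3, which encodes a myo-inositol transporter, lies on the same strand inside the Mrps6 gene (chr16:92058322-92087473, GRCm38). It was listed at 3.20, 5.10 and 5.09 FPKM in RSL3 against 3.17, 3.03 and 3.11 FPKM in DMSO, with RSL3 replicate 1 near the DMSO values (log2 fold change 0.39 ± 0.15, SE; limma adjusted p = 0.170), and no label says how reads were shared out between the 2 genes. Mrps2, a homologue of bacterial S2, was also higher in all RSL3 libraries, at 25.8, 26.6 and 25.2 FPKM against 24.1, 23.8 and 23.9 FPKM in DMSO, with a log2 fold change of 0.11 and a limma adjusted p of 0.299.

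In the large subunit no gene was called by limma, while at an unadjusted p under 0.05 10 were lower (20.4%, against 14.3% of all mRNAs) and 1 higher (2.04%, against 9.86%). Mrpl42, a protein particular to mitochondria, had the lowest fold change of the set. It had 6.27, 10.0 and 8.37 FPKM in RSL3 against 13.6, 12.5 and 11.4 FPKM in DMSO, with RSL3 replicate 1 the lowest of all 6 libraries (log2 fold change -0.57 ± 0.15, SE; limma adjusted p = 0.0734). For Mrpl42, 3 of 15 alternative fits called it lower. Mrpl54, another protein with no bacterial homologue, had 44.0, 34.9 and 37.6 FPKM in RSL3 against 52.6, 48.8 and 50.9 FPKM in DMSO (log2 fold change -0.38 ± 0.091, SE; limma adjusted p = 0.0527). There RSL3 replicate 1 was the highest of the RSL3 libraries and still below every DMSO library, and 4 of 15 alternative fits called the gene lower.

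Mrpl1 and Mrpl3 encode homologues of bacterial L1, in the stalk at the exit site, and of L3, which reaches toward the peptidyl transferase centre. Mrpl1 had 3.07, 5.998 and 5.29 FPKM in RSL3 against 7.03, 6.98 and 6.50 FPKM in DMSO. Mrpl3 had 2.61, 5.07 and 4.77 FPKM in RSL3 against 5.28, 5.55 and 6.72 FPKM in DMSO. In both, RSL3 replicate 1 lay far below the other RSL3 libraries, and the log2 fold changes of -0.47 and -0.44 came with adjusted p of 0.187 and 0.230 in limma. Without RSL3 replicate 1 they were -0.24 and -0.21. With length and GC trends removed, Mrpl1 was called lower at -0.37 (limma adjusted p = 0.0371), but not with the replicate block added. Mrpl28, Mrpl11 and Mrpl18 encode homologues of bacterial L28, of L11, which contacts the translation factors, and of L18. All were lower in every RSL3 library than in any DMSO library, with log2 fold changes of -0.31, -0.26 and -0.21 and limma adjusted p between 0.0861 and 0.0871. Mrpl48 was likewise lower throughout, at 3.45, 3.28 and 2.77 FPKM in RSL3 against 4.26, 4.30 and 3.70 FPKM in DMSO. Mrpl20, Mrpl34, Mrpl55 and Mrpl22 were called lower only in the fit without RSL3 replicate 1, among the 15 run.

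On the other side, Mrpl52, which encodes a protein with no bacterial homologue, had 24.7, 19.5 and 19.2 FPKM in RSL3 against 17.2, 16.3 and 16.3 FPKM in DMSO. All RSL3 libraries were above the DMSO libraries, with a log2 fold change of 0.32 ± 0.10 (SE; limma adjusted p = 0.114). It was 0.21 without RSL3 replicate 1, and the fits with length and GC trends removed called it higher, at 0.51. Mrpl10 and Mrpl12 encode the base and the mobile arms of the stalk that recruits translation factors. Mrpl10 had 65.8, 60.2 and 61.9 FPKM in RSL3 against 57.1, 59.7 and 58.8 FPKM in DMSO. Mrpl12 had 83.7, 76.0 and 75.8 FPKM in RSL3 against 87.8, 83.6 and 84.8 FPKM in DMSO, so the 2 stalk mRNAs lay on opposite sides of their DMSO means, neither past the test.

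**Figure D3:**
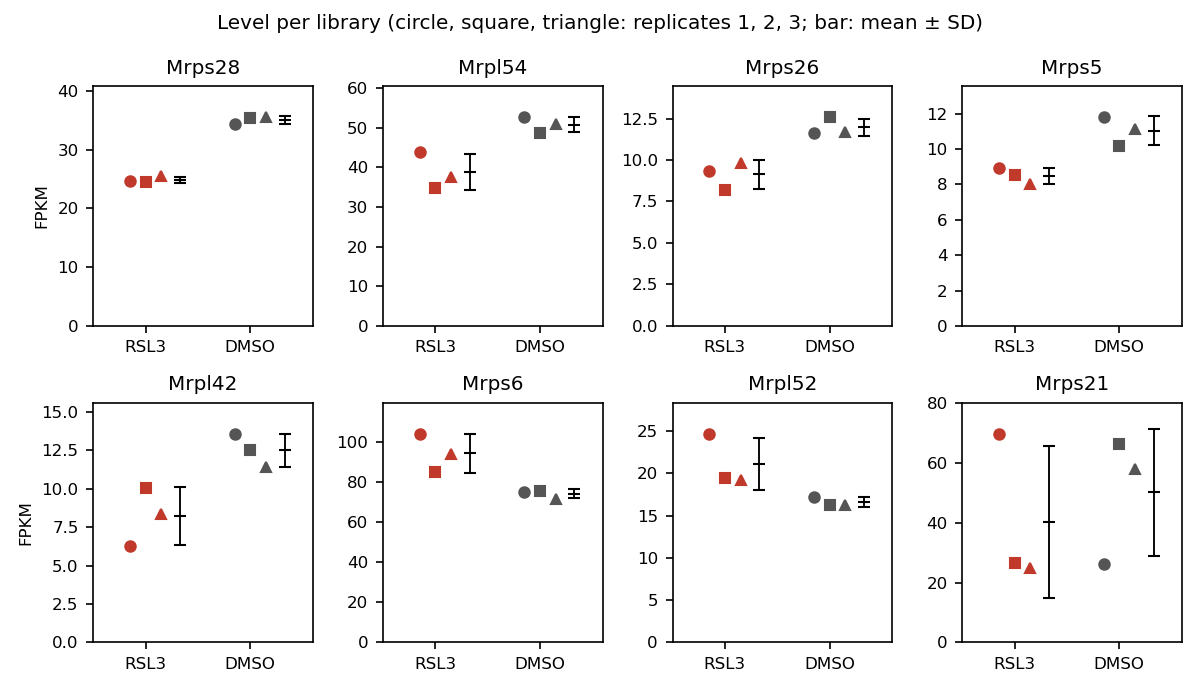
FPKM of 8 members in each RSL3 and DMSO library (circle, square and triangle for replicates 1, 2 and 3), with the mean and SD of 3 libraries as bars and every axis starting at 0. Mrps28 shows the widest gap relative to its spread, Mrps6 and Mrpl52 lie higher in RSL3, and Mrps21 has 1 library of each group among the values of the other group.

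Some members varied within a group by more than any difference between the groups. Mrps21, the homologue of bacterial S21, had 69.8, 26.4 and 24.9 FPKM in RSL3 against 26.1, 66.6 and 58.0 FPKM in DMSO, with RSL3 replicate 1 high and DMSO replicate 1 low. Mrps12, the homologue of bacterial S12 at the decoding centre, had 24.9, 7.18 and 13.1 FPKM in RSL3 against 15.8, 10.5 and 19.4 FPKM in DMSO. Mrpl53 had 18.9, 7.96 and 12.9 FPKM in RSL3 against 11.8, 10.7 and 11.2 FPKM in DMSO, and its log2 fold change of 0.14 was -0.13 without RSL3 replicate 1; a gene listed as Gm42688 covers it on the same strand. Of these 3 none was called, and the groups overlapped in each.

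Levels within the set spanned more than an order of magnitude and ranked similarly in RSL3 and DMSO. Mean levels ran between 2.50 FPKM (Mrpl32) and 94.4 FPKM (Mrps6) in RSL3, and between 3.47 FPKM (Mrpl32) and 89.3 FPKM (Mrpl34) in DMSO. Mrpl32 encodes a protein whose maturation by the m-AAA protease is a step of ribosome assembly, and Mrpl34 encodes a homologue of bacterial L34. The medians were 15.8 FPKM over the Mrpl and 14.5 FPKM over the Mrps genes in RSL3, and 16.6 and 14.2 FPKM in DMSO. Across the 78 members the RSL3 and DMSO means correlated at a Spearman rho of 0.982, and the same 10 genes were the 10 highest in both groups; the points share library preparation and gene length. At the top, Mrpl34 at 80.1 ± 11.5 FPKM and Mrpl12 at 78.5 ± 4.52 FPKM in RSL3 did not differ beyond their SD, and Mrps6 at 94.4 ± 9.60 FPKM stood above both in the mean, whereas in DMSO it was below both, at 74.2 ± 2.12 FPKM against 89.3 ± 1.18 and 85.4 ± 2.13 FPKM (n = 3). Mrps17 and Mrps35, at 3.60 and 4.91 FPKM in RSL3 and 4.17 and 5.52 FPKM in DMSO, were the lowest of the small subunit in DMSO.

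**Figure D4:**
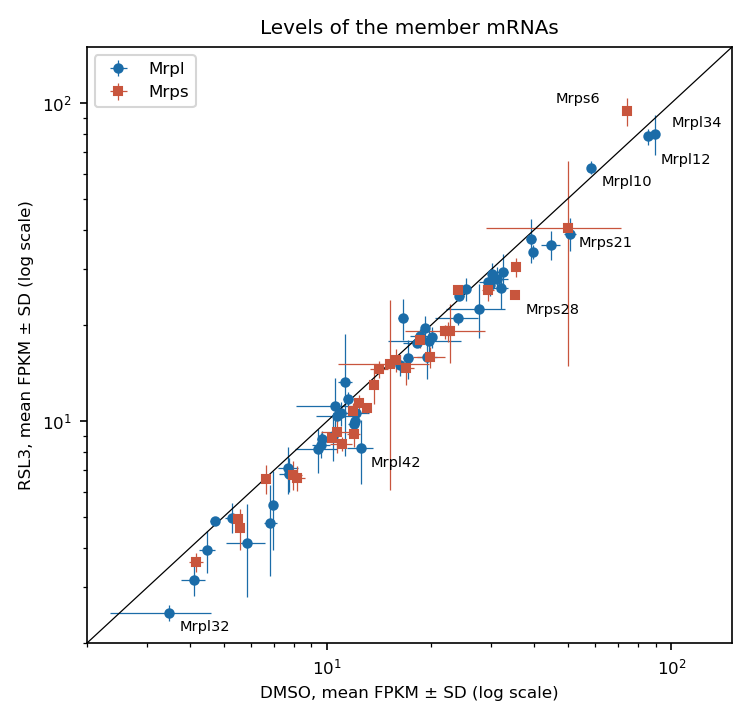
Mean level of each member in RSL3 (vertical axis) against DMSO (horizontal axis), in FPKM on log scales, with SD bars over 3 libraries, the line of equality, and Mrpl and Mrps genes in different symbols. Most points lie under the line, Mrps6 and Mrpl52 above it, and the order of levels is largely kept.

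Summed over all members, the level was 1557, 1428 and 1437 FPKM in RSL3 against 1608, 1604 and 1609 FPKM in DMSO. The Mrpl sum was 1004, 948 and 946 FPKM in RSL3 against 1085, 1043 and 1047 FPKM in DMSO, without overlap. The Mrps sum was 553, 480 and 491 FPKM in RSL3 against 524, 561 and 562 FPKM in DMSO, where RSL3 replicate 1 and DMSO replicate 1 cross the groups, as they do in Mrps21. With Mrps21 left out, every RSL3 library lay below every DMSO library in the Mrps sum too. Mrps21 was picked for this from the same values, so that separation is no separate support. The ratio of the Mrpl to the Mrps sum was 1.82, 1.98 and 1.93 in RSL3 and 2.07, 1.86 and 1.86 in DMSO, and without Mrps21 it was 2.08, 2.09 and 2.03 in RSL3 and 2.18, 2.11 and 2.08 in DMSO. As all mRNA FPKM also summed lower in RSL3 (200135, 213765 and 211874, against 225295, 224970 and 220605 in DMSO), the members' share was 0.778%, 0.668% and 0.678% in RSL3 and 0.714%, 0.713% and 0.729% in DMSO, with RSL3 replicate 1 above and the other RSL3 libraries below all DMSO libraries. In bulk RNA, a change in RNA per cell and a change in the cells present cannot be told apart.

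Cytosolic ribosomal protein genes, which build the ribosome outside mitochondria, had a median log2 fold change of -0.012, and 45 of the 80 tested were under 0. In limma none was called, with 3 higher and 4 lower at an unadjusted p under 0.05, and 11 (13.8%, against 19.6% of all mRNAs) had every RSL3 library below every DMSO library. The other proteins and factors of mitochondrial translation also gave few calls. Among 5 mitochondrial ribosomal proteins with other symbols (Chchd1, Ptcd3, Dap3, Aurkaip1 and Gadd45gip1) the median was -0.050 and none was called in limma, 1 being lower at an unadjusted p under 0.05. For 26 assembly factors the median was 0.024, for 18 translation factors -0.051, for 17 mitochondrial tRNA synthetases 0.015 and for 14 genes of mitochondrial DNA transcription and RNA processing -0.068. None of the genes of these lists was called in limma. At an unadjusted p under 0.05, 14.3% of all mRNAs were lower and 9.86% higher. By that limit the assembly factors gave 0, the translation factors 1 higher and 2 lower, the synthetases 1 higher, and the transcription and RNA genes 2 lower.

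The 13 mRNAs encoded by mitochondrial DNA, which the mitochondrial ribosome translates, had a median log2 fold change of -0.366, and 12 of 13 were under 0. Their summed level was 7954, 13440 and 10278 FPKM in RSL3 against 14181, 12253 and 12767 FPKM in DMSO, so RSL3 replicate 1 was far below all others and RSL3 replicate 2 within the DMSO range. The 13 mRNAs had a median GC content of 37.1%, against 50.5% over all tested mRNAs. The RSL3 libraries differed among themselves with GC content, and its part in these sums was not tested. None of the 13 was called in limma, and 4 were lower at an unadjusted p under 0.05, against 14.3% of all mRNAs. The lowest p among them belonged to mt-Nd2, a subunit of respiratory complex I, which had 348, 650 and 462 FPKM in RSL3 against 836, 696 and 763 FPKM in DMSO (log2 fold change -0.69; limma adjusted p = 0.0948). Without RSL3 replicate 2, mt-Nd1, mt-Nd2, mt-Nd5 and mt-Nd6 were called lower, as were 4.14% of all mRNAs.

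Of 10 tested regulators of nuclear genes for mitochondria, 1 was called lower, against 3.92% of all mRNAs. Mycn, the growth-promoting transcription factor of neuroblastoma, fell to 3.45, 3.17 and 3.68 FPKM in RSL3, against 5.98, 5.74 and 5.76 FPKM in DMSO (log2 fold change -0.62 ± 0.081, SE; limma adjusted p = 0.00836). The adjusted p was 0.0536, 0.0519 and 0.0526 without DMSO replicate 1, 2 and 3, with fold changes between -0.63 and -0.61. The regulators' median was -0.189. Nrf1, which encodes a transcription factor of many nuclear genes for mitochondrial proteins, had 2.45, 2.12 and 2.26 FPKM in RSL3 against 3.14, 2.98 and 2.68 FPKM in DMSO, without overlap and with a limma adjusted p of 0.124. Gabpa, the DNA-binding ETS subunit of NRF2/GABP, had 7.83, 10.7 and 7.84 FPKM in RSL3 against 11.3, 11.98 and 10.8 FPKM in DMSO, where the highest RSL3 value lies just under the lowest DMSO value.

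Promoter windows, from 250 bases before to 50 bases after the RefSeq gene start, were at hand for 69 of the 78 members. They were searched on both strands for the letters of NRF1 (GCGC, any base, then TGCGC), ETS (CCGGAAG) and YY1 (AAGATGGC). NRF1 letters were found in 13 members (18.8%), against 12.8% of tested mRNAs and 5.19% of all genes in the table. ETS letters were found in 26 members (37.7%), against 22.3% and 9.93%, and YY1 letters in 12 members (17.4%), against 5.83% and 3.19%. A match describes the letters and is not a shown binding site. Windows are shown for Mrps26, which was lower in every RSL3 library and holds 2 of these motifs, for Mrps6, which was higher in every RSL3 library, and for the pair Mrps11 and Mrpl46. Capitals mark the matches, and the gene start follows base 250.
Mrps26, chr2:130563507-130563806, plus strand, GRCm38.p6: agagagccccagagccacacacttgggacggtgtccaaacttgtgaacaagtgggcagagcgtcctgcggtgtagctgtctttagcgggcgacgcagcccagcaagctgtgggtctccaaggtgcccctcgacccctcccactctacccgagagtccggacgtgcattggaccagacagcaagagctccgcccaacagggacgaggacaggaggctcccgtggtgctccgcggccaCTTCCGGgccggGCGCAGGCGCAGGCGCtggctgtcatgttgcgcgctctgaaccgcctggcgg
Mrps6, chr16:92058086-92058385, plus strand, GRCm38.p6: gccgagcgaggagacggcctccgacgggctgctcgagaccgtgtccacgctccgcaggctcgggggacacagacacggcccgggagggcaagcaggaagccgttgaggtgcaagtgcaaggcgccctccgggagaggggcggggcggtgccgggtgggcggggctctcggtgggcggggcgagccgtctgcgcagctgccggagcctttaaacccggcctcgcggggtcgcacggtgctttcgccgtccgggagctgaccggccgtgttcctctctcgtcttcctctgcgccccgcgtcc
Mrps11, chr7:78782881-78783180, plus strand, GRCm38.p6: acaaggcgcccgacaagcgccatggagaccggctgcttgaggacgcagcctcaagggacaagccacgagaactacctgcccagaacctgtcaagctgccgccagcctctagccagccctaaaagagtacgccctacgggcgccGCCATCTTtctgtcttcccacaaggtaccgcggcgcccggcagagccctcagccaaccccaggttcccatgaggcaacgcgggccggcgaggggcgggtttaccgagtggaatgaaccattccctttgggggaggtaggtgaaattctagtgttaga
Mrpl46, chr7:78783040-78783339, minus strand, GRCm38.p6: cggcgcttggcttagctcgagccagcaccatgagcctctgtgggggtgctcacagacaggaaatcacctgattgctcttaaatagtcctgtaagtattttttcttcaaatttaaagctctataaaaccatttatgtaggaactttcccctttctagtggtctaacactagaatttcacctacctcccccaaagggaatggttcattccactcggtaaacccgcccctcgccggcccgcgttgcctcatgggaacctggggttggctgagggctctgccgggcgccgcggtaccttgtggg

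In Mrps26 the NRF1 letters occur at bases 249 to 258 and 255 to 264, overlapping each other across the gene start, and the ETS letters at bases 237 to 243, all read on the other strand. The Mrps6 window holds none of the 3 motifs, and 286 of its 300 bases also lie in the window of Slc5a3. In Mrps11 the YY1 letters lie on the other strand at bases 144 to 151, upstream of the start, and the Mrpl46 window holds none. Mrps11 and Mrpl46 are a small-subunit and a large-subunit gene transcribed away from a shared promoter region, and their windows share 141 bases. Mrps11 had 10.6, 7.87 and 9.36 FPKM in RSL3 against 11.2, 11.4 and 9.45 FPKM in DMSO. Mrpl46 had 16.7, 19.0 and 19.4 FPKM in RSL3 against 20.8, 19.7 and 19.8 FPKM in DMSO. Both fold changes were under 0 (-0.19 and -0.13) and neither gene was called (limma adjusted p = 0.380 and 0.353).

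Start sites shared with a gene on the opposite strand were common in the set. Within 1000 bases of its own start, 33 of the 78 members (42.3%) had the start of a protein-coding gene on the opposite strand, against 17.6% of 10556 tested mRNAs. Of these 33 neighbours 29 were tested, with a median log2 fold change of -0.057, while the 33 members had a median of -0.161. Mrps11 and Mrpl46 are each other's neighbour and count in both medians. In limma 2 of the 29 were called (6.9%, against 6.38% of all mRNAs), Ska3, which encodes a kinetochore protein, beside Mrpl57, and Ncapd2, which encodes a condensin subunit, beside Mrpl51. Ska3 had 6.95, 7.75 and 7.71 FPKM in RSL3 against 10.6, 10.8 and 9.88 FPKM in DMSO (log2 fold change -0.43; limma adjusted p = 0.0221). Ncapd2 had 28.0, 26.8 and 28.7 FPKM in RSL3 against 34.2, 34.2 and 33.6 FPKM in DMSO (log2 fold change -0.28; limma adjusted p = 0.0346). Both calls were lost without any single DMSO library and without RSL3 replicate 3, and that of Ncapd2 was also lost without RSL3 replicate 2. The members beside them were not called. In the annotation, 23 members overlapped another listed gene, 4 on the same strand and 20 on the opposite strand, and no label says whether the counting used strand.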

How the data were processed

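Poly(A)-selected RNA was sequenced with a stranded kit, per the labels' protocols. Each deposited table of mRNAs or lncRNAs gives FPKM; per the submitters' processing notes cutadapt, HISAT2, StringTie 1.3.3 and the build GRCm38 were used. Annotation release, filters and read depth: not given in the sources used here; so no counting interval can be given. The deposited circRNA files were not used here.

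Tables of 6 libraries were joined by gene identifier. GENCODE M21 (GRCm38) gave positions, length and GC content for 11595 of 11609 mRNAs, and RefSeq the promoter windows. RSL3 was compared with DMSO (3 libraries each) in limma 3.58.1 (R 4.3.3) with a variance trend on log2(FPKM + 1), two-sided, for mRNAs of at least 1 FPKM in 3 or more libraries, with Benjamini-Hochberg adjustment and a threshold of 0.05. The procedure was tested on simulated data, drawn independently for each gene and library. These held no differences between libraries with GC content or length, so they do not bear on such differences in the real libraries. Subunit and list values are medians with no test. The members and lists were chosen with earlier results of these data known.

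The genes named were taken by a rule: members past the threshold, the 3 highest and 3 lowest fold changes and the 3 highest and 2 lowest DMSO levels of each subunit, Mrps18a, Mrps18b, Mrps18c, Mrps30 and Mrps36, and called list genes. It gave 23 members and Mycn. Any other gene named with values was chosen after its values were seen. Alternatives were a pseudocount of 0.1, no filter, a filter of 5 FPKM, median-ratio and quantile scaling, removal of length and GC trends, no variance trend, a replicate block with and without trend removal, each library left out, and other memberships.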

Additional observations from a re-analysis of the deposited data

How the results depend on the processing

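The call of Mrps28 and the sign of both subunit medians held in all 15 alternative fits. The number of members called, 1 in the main comparison, was 5 of 73 tested with the filter of 5 FPKM and 2 of 78 after quantile normalization. It was 9 of 78 with length and GC trends removed, and 5 of 78 with trends removed and the replicate block. All mRNAs gave 635 of 6810, 679 of 10590, 1777 of 10578 and 818 of 10578 in these fits. The shares called lower were 5.48%, 1.28%, 8.97% and 3.85% of members, against 6.2%, 3.11%, 9.1% and 4.31% of all mRNAs. Leaving out single libraries gave 1 to 12 members, the 12 without RSL3 replicate 1, where 1276 of 10525 mRNAs were called. Over all mRNAs, 676 in the main comparison, the count was 253 with the replicate block and 137 to 1276 without single libraries. Among the 103 tested genes of the mitochondrial lists, where Mycn was the single call, 7 were called with trends removed (against 1777 of 10578 mRNAs). Without single libraries it was 0 to 6 of 102 or 103. The Mrpl median, -0.137, was -0.128 with the stricter filter and also with the structural assignment of subunits, -0.101 after median-ratio scaling, -0.082 after quantile normalization and -0.057 with trends removed, with or without the block, and ranged between -0.157 and -0.109 without single libraries. The Mrps median, -0.189, was -0.155, -0.148 and -0.101 under the same scalings and trend removal, and between -0.198 and -0.167 without single libraries. Median-ratio scaling moved the median of all mRNAs to -0.00018 and quantile normalization to 0.0012, against -0.031 as deposited. The causes were not tested.

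Of 581 pairs of a named gene and an alternative, 520 kept sign and call, 33 gained and 17 lost the call, and 11 changed sign, all in genes that were not called in the main comparison. With trends removed, with or without the block, Mrpl22 was at 0.060, Mrps18c at 0.021, Mrps30 at 0.013 and Mrps36 at 0.0049. Over the fits without single libraries, Mrpl53 ranged between -0.13 and 0.44 (under 0 without RSL3 replicate 1), Mrps30 between -0.13 and 0.022 (above 0 without RSL3 replicate 1) and Mrps18a between -0.0014 and 0.083 (under 0 without DMSO replicate 3). The labels state no pairing, so the numbers were not taken as pairs. Deviations of same-numbered libraries correlated at -0.15, 0.049 and -0.062 across genes, and none of the 3 RSL3 libraries correlated best with its own number. These correlations cannot decide on pairing, as deviations from a group mean constrain one another and the RSL3 libraries also differed with GC content. The replicate block left the members called at 1. Read depth is unknown, and with 3 libraries a group the smallest differences cannot be resolved.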

Other observations

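Of the lncRNAs listed, 4 overlap a member gene. Gm16755, on the strand opposite to Mrpl12, was listed at 0 in all 3 RSL3 libraries and at 0.359, 0.865 and 0.317 FPKM in DMSO. Gm16310, in an intron of Mrps6 on the same strand, had 1.13, 2.21 and 2.60 FPKM in RSL3 and 1.18, 1.56 and 1.75 FPKM in DMSO, with overlapping groups. Ccdc142os, opposite to Mrpl53, had 2.15, 1.70 and 2.44 FPKM in RSL3 and 2.00, 2.17 and 1.72 FPKM in DMSO. Gm43809, on the strand of Mrpl33, had 1.21, 2.38 and 1.32 FPKM in RSL3 and 1.19, 1.11 and 0.121 FPKM in DMSO, with the lowest RSL3 value barely above the highest DMSO value. These lncRNA values are low and were not tested, and the share of all lncRNAs with groups that do not overlap was not counted.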
